A study of Mus musculus with 15 samples.

Results

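The genes described here encode 41 proteins of the nucleolus that make ribosomes, chosen by name from the known parts of that pathway, and every probe set that the array's annotation assigns to one of them alone was used. Of the 41 genes, 38 were measured, by 65 probe sets, among 17097 genes and 45141 probe sets in all. Of the other 3, Tsr1 was read only by a probe set that it shares with Srr, and Gnl3 and Mybbp1a had no probe set of their own, so they enter no count. The 38 genes fell into 6 roles, with 3 of box C/D and 4 of box H/ACA small nucleolar ribonucleoproteins, 3 subunits of RNA polymerase I, 11 factors of the small subunit, 13 of the large subunit and 4 nucleolar chaperones and multifunctional proteins.

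The nucleolus transcribes ribosomal RNA with RNA polymerase I, trims and chemically modifies the transcript with the help of small nucleolar RNAs, and assembles it with ribosomal proteins into the small and the large ribosomal subunit. Most of the proteins that do this leave the particle before it works, so they belong to the making of the ribosome and not to the ribosome itself. Only their transcripts were measured here, and ribosome production was not. The transcription factor Myc and its relative Mycn are known to bind promoters of many such genes through the E-box CACGTG, and Shh signalling is known to induce Mycn in granule neuron progenitors of the cerebellum.

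RNA from 15 mouse samples was measured on 1-colour Affymetrix arrays, 1 array per sample, in 5 groups of 3, to compare a Myc-driven model of medulloblastoma with Shh medulloblastoma and with cerebellar cells. Cells from cerebella of Cdkn2c-/-, Trp53-/-, Atoh1-GFP mice were infected with Myc and injected into the cerebral cortex of nude mice, which lack a thymus and mature T cells, and the tumours that grew are the Myc primary group. The Myc secondary group came from tumour spheres of such tumours, grown in culture and transplanted again, so it descends from cells that had passed through a host and a culture. The Shh group held spontaneous medulloblastomas of Cdkn2c-/-; Trp53Fl/Fl; Nestin-Cre mice, in which the Nestin promoter drives Cre in neural progenitors widely, not in the granule lineage alone. Flow cytometry of cerebella from Cdkn2c-/-, Trp53-/-, Atoh1-GFP mice at postnatal day 6 gave the GFP-positive and the GFP-negative group, neither with added Myc. Every group thus lacked Cdkn2c, and Trp53 was deleted or floxed in all of them. Labels on the sorted samples call them spontaneous tumour, while the text of the study describes sorted cerebellar cells, and the study's text was followed. Tumour cells had passed a Percoll gradient before RNA was extracted, and the labels do not say whether the 3 samples of a group are from different animals, so a p-value reflects only how these samples scatter, which may be technical.

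Values are log2 signals, on which 1 unit is a 2-fold change, and signals of different probe sets are not compared with each other. A gene with several probe sets was read by the brightest. Differences are given with the standard error of the limma fit over all 15 arrays, group means with the SD of 3 arrays, and a gene rose or fell when its p, adjusted over all 17097 genes by the Benjamini-Hochberg method, was below 0.05. The background level was 4.77, the signal that 95% of the 23 nonspecific control probe sets stayed under. No group mean of any of the 38 genes was under it.

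Cdkn2c was under background in every group, with means from 3.42 to 4.07, and for Trp53 no probe set lists it alone. Myc read 7.54 ± 2.04 in Myc primary tumours, with 5.21 on 1 array and 8.41 and 9.0 on the others, and 9.36 ± 0.65 in Myc secondary tumours. It read 8.49 ± 0.55 in Shh tumours, 7.15 ± 0.41 in GFP-positive and 8.60 ± 0.08 in GFP-negative cells, and nothing says whether its probe set reads the introduced copy. Mycn was at 10.70 ± 0.05 in Shh tumours and 10.62 ± 0.20 in GFP-positive cells, and at 4.54 ± 0.42 in Myc primary tumours, under background. Atoh1, which specifies granule neuron progenitors, was at 8.92 in GFP-positive cells and 9.74 in Shh tumours and under background, at 4.09 and 4.62, in GFP-negative cells and Myc primary tumours. All 8 microglia markers were under background in GFP-positive cells and none was in GFP-negative cells. Arrays that stood apart from their groups were Myc primary 3, whose oligodendrocyte markers lay a median of 3.12 above their mean over all arrays against -0.36 and -1.44 on the other Myc primary arrays, GFP-negative 3, with the narrowest spread of signals, and Myc secondary 1, with the lowest mean correlation within its group, 0.962. On Myc primary 3 the fibroblast, astroglia and endothelial markers were the highest of the group as well, at 2.13, 1.45 and 1.02 above their mean. Its microglia markers, at -0.45, were not. RNA is from bulk samples, in which fewer cells of a type and less RNA per cell cannot be told apart.

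Promoter sequences from RefSeq, mouse build GRCm38.p6, were searched for CACGTG, an E-box that reads the same on both strands, from 250 bases before to 50 bases after the start of each gene. Promoters matched 36 of the 41 genes by symbol, and Fbl, Rrp12, Bop1, Rrs1 and Npm1 had none in the collection. The motif was present in 8 of the 36 (22.2%), in 8.09% of the promoters of all 27025 genes in the collection and in 10.2% of those of the 13605 genes that were also measured on the array. Among the roles it was present in 4 of 11 small subunit factors, 3 of 11 large subunit factors and 1 of 5 chaperones and multifunctional proteins, and in none of the 9 promoters of the snoRNP proteins and polymerase subunits. A match is a description of the sequence and says nothing about binding in these cells. The 250 bases before the start of Nop2, an RNA methyltransferase of the large subunit, are shown because it has the motif and is among the 12 genes with values on every array below, of which Fbl and Rrp12 could not be searched and the other 9 held no match. They lie at chr6:125131633-125131882 on the + strand, with CACGTG in capitals, its first base 60 bases before the start.
Nop2: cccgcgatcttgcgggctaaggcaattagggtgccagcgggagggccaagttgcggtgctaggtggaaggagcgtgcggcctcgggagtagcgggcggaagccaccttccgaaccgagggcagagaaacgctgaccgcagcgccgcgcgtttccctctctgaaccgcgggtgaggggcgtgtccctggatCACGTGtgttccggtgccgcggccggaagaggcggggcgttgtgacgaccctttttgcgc

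The motif with up to 10 bases on either side is shown for the other 5 measured genes that hold it, to let the flanks be compared, again 5′ to 3′ on the strand of the gene and with CACGTG in capitals. Imp4 lies on the + strand at chr1:34439698-34439723 and Utp20 on the - strand at chr10:88826765-88826787. Pes1 lies on the + strand at chr11:3963967-3963992, Nle1 on the - strand at chr11:82908357-82908382 and Wdr43 on the + strand at chr17:71616222-71616247.
Imp4: ggtcttagacCACGTGacatcccaaa
Utp20: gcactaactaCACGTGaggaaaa
Pes1: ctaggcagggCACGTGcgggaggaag
Nle1: ggttctcctcCACGTGgggacgcagg
Wdr43: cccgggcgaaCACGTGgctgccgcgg

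In Myc primary against Shh tumours 8.46% of all genes rose, and of the measured members with a promoter all 6 that hold the motif rose, with a median difference of 1.08, and 22 of the 27 without it, with a median of 1.05. Among the 6, Nop2 rose by 1.55 ± 0.23 and Imp4 by 1.06 ± 0.15. Utp20 rose by 1.38 ± 0.28, Nle1 by 1.10 ± 0.21, Wdr43 by 1.05 ± 0.27 and Pes1 by 1.0 ± 0.25. Genes without the motif in this window rose as well, among them Nop16 by 2.18 ± 0.27 and Rrp9 by 1.84 ± 0.21.

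Across the 5 groups the genes kept much the same order. Myc secondary tumours had the highest mean for 25 of the 38 genes and Myc primary tumours for the other 13. Shh tumours were the third highest for 35 genes, GFP-positive cells the fourth for 32 and GFP-negative cells the lowest for 35. Relative to each gene's mean over the 15 arrays, the median of the 38 genes was 0.98, 0.96 and 0.84 on the Myc primary arrays and 0.85, 1.13 and 1.02 on the Myc secondary arrays. It was -0.09, -0.19 and 0.01 on the Shh arrays, -0.81, -0.64 and -0.77 on the GFP-positive arrays and -0.89, -0.96 and -1.30 on the GFP-negative arrays. The 6 Myc tumour arrays were thus above the 3 Shh arrays, and these above all 6 arrays of sorted cells, while the same median over all genes stayed between -0.08 and 0.02.

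**Figure D1:**
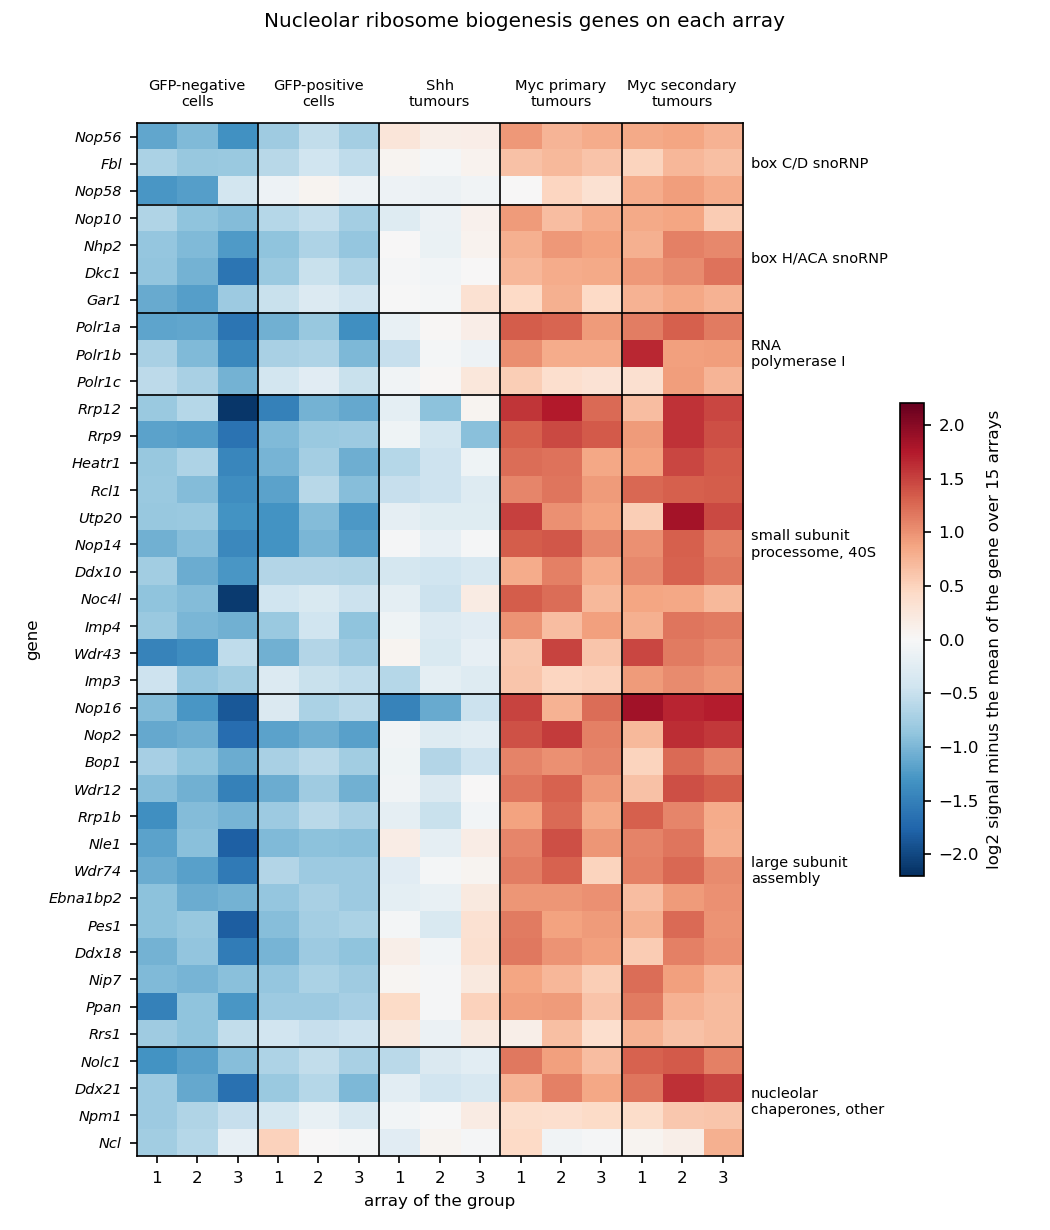
Log2 signal of each of the 38 genes (rows, grouped by role) on each of the 15 arrays (columns), as the difference from the gene's mean over all arrays; red is above and blue below that mean. The Myc primary and secondary columns are red for nearly every gene, the Shh columns are near white for most and the sorted-cell columns are mostly blue. In the rows of Ncl, Nop58 and Nop16 the GFP-positive mean is above the Shh mean, and Nop16 is below its own mean on every Shh array.

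In Myc primary against Shh tumours, 31 of the 38 genes rose and none fell, against 8.46% of all genes tested that rose and 7.33% that fell. Their median difference was 1.06, or 2.08-fold, and that of all genes 0.08. All 38 differences were above 0, between 0.19 and 2.18, and 23 genes rose at least 2-fold, as did 4.52% of all genes. For 36 genes every Myc primary array was above every Shh array, as it was for 22.4% of all genes. Between 29 and 34 genes rose when each of the 15 arrays was left out in turn. Calls over all genes, in either direction, then ran from 1795 (without Shh 2) to 3351 (without GFP-negative 3), against 2701 in the main fit. Myc primary 3, the array with high oligodendrocyte, fibroblast, astroglia and endothelial markers, had the lowest median of the 38 genes in its group. Without it 31 genes rose as well. The control probe set at the 5′ end of 18S ribosomal RNA read 9.05, 11.46 and 12.19 on the Myc primary and 9.37 to 9.57 on the Shh arrays, and its part in the result was not tested.

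RNA polymerase I makes the ribosomal RNA precursor. Polr1a, its largest subunit, read 9.37, 9.31 and 8.97 on the Myc primary, 9.16, 9.34 and 9.17 on the Myc secondary, 7.87, 8.06 and 8.19 on the Shh, 6.99, 7.20 and 6.69 on the GFP-positive and 6.87, 6.90 and 6.42 on the GFP-negative arrays. The Myc arrays were above the Shh arrays and these above the sorted cells, which overlapped each other. Polr1a was higher in Myc primary (9.22 ± 0.21) than in Shh tumours (8.04 ± 0.16) by 1.18 ± 0.17, or 2.27-fold (adjusted p = 0.00063). Polr1b, the subunit that forms the other side of the catalytic centre, read 7.96, 7.77 and 7.76 in Myc primary, 8.61, 7.84 and 7.86 in Myc secondary, 6.44, 6.90 and 6.84 in Shh, 6.24, 6.27 and 5.96 in GFP-positive and 6.23, 5.97 and 5.52 in GFP-negative samples. The arrays separated in the same way, with Myc secondary 1 the highest of all. Polr1b rose by 1.10 ± 0.23 (adjusted p = 0.0057). Polr1c, a subunit shared with RNA polymerase III, differed by 0.34 ± 0.17 and did not pass (adjusted p = 0.19).

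Box C/D particles add methyl groups to ribosomal RNA, and 2 of their 3 measured proteins rose, with a median difference of 0.63. Nop56, a scaffold of the particle, read 11.96, 11.76 and 11.82 on the Myc primary, 11.85, 11.88 and 11.78 on the Myc secondary, 11.28, 11.15 and 11.16 on the Shh, 10.22, 10.47 and 10.26 on the GFP-positive and 9.87, 10.05 and 9.68 on the GFP-negative arrays. Apart from the 2 Myc groups, which overlapped, no group overlapped another. Nop56 was at 11.85 ± 0.10 in Myc primary and 11.20 ± 0.08 in Shh tumours, a rise of 0.65 ± 0.12, or 1.57-fold (adjusted p = 0.0027). Fbl, or fibrillarin, the methyltransferase, read 12.001, 12.08 and 11.98 in Myc primary, 11.86, 12.09 and 12.03 in Myc secondary, 11.42, 11.32 and 11.44 in Shh, 10.75, 10.93 and 10.80 in GFP-positive and 10.66, 10.52 and 10.55 in GFP-negative samples. Its groups separated as those of Nop56 did, and it rose by 0.63 ± 0.10 (adjusted p = 0.0012). Nop58, the partner of Nop56 in the scaffold, did not pass, with 11.56 ± 0.24 in Myc primary against 11.19 ± 0.02 in Shh tumours (0.38 ± 0.20, adjusted p = 0.24). It passed without GFP-negative 3 (adjusted p = 0.042) and with a term for earlier or later title numbers (adjusted p = 0.042).

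Box H/ACA particles turn uridines of ribosomal RNA into pseudouridine, and 3 of their 4 proteins rose, with a median of 0.86. Nop10, a small structural protein, read 12.71, 12.45 and 12.59 on the Myc primary, 12.60, 12.64 and 12.33 on the Myc secondary, 11.49, 11.64 and 11.87 on the Shh, 11.14, 11.24 and 11.02 on the GFP-positive and 11.12, 10.89 and 10.82 on the GFP-negative arrays. Nhp2, which binds the guide RNA, read 11.54, 11.71 and 11.64 in Myc primary, 11.55, 11.86 and 11.81 in Myc secondary, 10.76, 10.61 and 10.83 in Shh, 9.88, 10.07 and 9.90 in GFP-positive and 9.90, 9.78 and 9.51 in GFP-negative samples. For both genes the Myc arrays were highest, the Shh arrays next and the sorted cells, which overlapped each other, lowest. The rise over Shh tumours was 0.92 ± 0.14 for Nop10 (adjusted p = 0.00075) and 0.90 ± 0.13 for Nhp2 (adjusted p = 0.00063), 1.89-fold and 1.86-fold. Dkc1, the pseudouridine synthase, rose by 0.83 ± 0.17 (adjusted p = 0.0049), and Gar1 stood at 0.46 ± 0.15 (adjusted p = 0.054). Among other settings, Gar1 passed with array weights (adjusted p = 0.018), without the 3 arrays that stood apart (adjusted p = 0.032) and without Shh 3 (adjusted p = 0.027).

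All 11 measured factors of the small subunit rose, with a median difference of 1.33. Rrp12, which acts in late maturation and export of the small subunit, read 9.48, 9.67 and 9.17 on the Myc primary, 8.60, 9.50 and 9.39 on the Myc secondary, 7.70, 7.01 and 7.98 on the Shh, 6.44, 6.88 and 6.80 on the GFP-positive and 7.11, 7.30 and 5.77 on the GFP-negative arrays. Each Myc array was above each Shh array, while GFP-negative cells, the most scattered group, overlapped both the Shh and the GFP-positive arrays. Rrp12 was at 9.44 ± 0.25 in Myc primary and 7.56 ± 0.50 in Shh tumours, a rise of 1.88 ± 0.38, or 3.67-fold (adjusted p = 0.0052). Rrp9, a protein of the U3 particle that guides the first cuts of the precursor, read 9.67, 9.82 and 9.71 in Myc primary, 9.29, 9.94 and 9.78 in Myc secondary, 8.27, 7.96 and 7.44 in Shh, 7.39, 7.55 and 7.56 in GFP-positive and 7.19, 7.15 and 6.73 in GFP-negative samples. The lowest Shh array lay within the GFP-positive range, and the Myc arrays lay apart from all others. Rrp9 rose by 1.84 ± 0.21, or 3.59-fold (adjusted p = 0.00013).

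The other small subunit factors rose by 0.90 to 1.48. Heatr1 and Wdr43 belong to the module that joins the precursor first, and they rose by 1.48 ± 0.22 and 1.05 ± 0.27. Rcl1, Nop14, Utp20, Noc4l and the helicase Ddx10, all parts of or partners of the small subunit processome, rose by 1.47 ± 0.17, 1.33 ± 0.15, 1.38 ± 0.28, 1.26 ± 0.29 and 1.31 ± 0.14. The U3-binding proteins Imp4 and Imp3 rose by 1.06 ± 0.15 and 0.90 ± 0.14. Wdr43 no longer passed when Myc primary 2 (0.75, adjusted p = 0.073), Shh 2 (0.96, adjusted p = 0.079) or Shh 3 (1.04, adjusted p = 0.053) was left out, with arrays centred on the median gene (1.05, adjusted p = 0.057) or on the 6 arrays alone (1.05, adjusted p = 0.055). Imp4 no longer passed with the mean of its probe sets (0.44, adjusted p = 0.22).

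Of the 13 large subunit factors, 11 rose, with a median of 1.05. Nop16 had the largest difference of the 38 genes. It read 10.59, 9.86 and 10.33 on the Myc primary, 10.95, 10.78 and 10.83 on the Myc secondary, 7.63, 7.98 and 8.62 on the Shh, 8.78, 8.40 and 8.50 on the GFP-positive and 8.14, 7.82 and 7.23 on the GFP-negative arrays. Shh tumours overlapped both groups of sorted cells, and all Myc secondary arrays were above the Myc primary arrays. Nop16 was at 10.26 ± 0.37 in Myc primary and 8.08 ± 0.50 in Shh tumours, a rise of 2.18 ± 0.27, or 4.54-fold (adjusted p = 0.00021). Nop2, whose promoter is shown above, read 9.58, 9.71 and 9.28 in Myc primary, 8.88, 9.80 and 9.72 in Myc secondary, 8.09, 7.89 and 7.94 in Shh, 7.0, 7.09 and 6.98 in GFP-positive and 7.05, 7.10 and 6.49 in GFP-negative samples. Myc, Shh and sorted-cell arrays formed 3 ranges with no overlap, and the sorted groups overlapped each other. Nop2 rose by 1.55 ± 0.23, or 2.93-fold (adjusted p = 0.00067).

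Bop1, Pes1 and Wdr12 form the PeBoW complex, which is needed to process the RNA of the large subunit. They rose by 1.45 ± 0.19, 1.0 ± 0.25 and 1.28 ± 0.21. Pes1 no longer passed with the mean of its 2 probe sets (0.66, adjusted p = 0.20), without Myc primary 1 (adjusted p = 0.053) or without Shh 2 (adjusted p = 0.068). Rrp1b, Nle1, Wdr74 and Ebna1bp2, assembly factors of the large subunit, rose by 1.23 ± 0.17, 1.10 ± 0.21, 1.05 ± 0.19 and 1.04 ± 0.13, and the helicase Ddx18 and the factor Nip7 by 0.88 ± 0.19 and 0.63 ± 0.14. Nip7 no longer passed with arrays centred on the median gene (adjusted p = 0.10). The 2 that did not pass were Ppan, at 0.54 ± 0.19 (adjusted p = 0.072), and Rrs1, which helps to load the 5S RNA particle, at 0.29 ± 0.15 (adjusted p = 0.23). Ppan passed with array weights (0.59, adjusted p = 0.038) and without the 3 arrays that stood apart (0.64, adjusted p = 0.039).

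Among the chaperones and multifunctional proteins, Nolc1 and Ddx21 rose and Npm1 and Ncl did not pass. Nolc1, a phosphoprotein that chaperones small nucleolar ribonucleoproteins, read 11.09, 10.82 and 10.60 on the Myc primary, 11.21, 11.27 and 11.02 on the Myc secondary, 9.33, 9.60 and 9.68 on the Shh, 9.24, 9.38 and 9.20 on the GFP-positive and 8.61, 8.73 and 8.98 on the GFP-negative arrays. Ddx21, a helicase that acts in both transcription and processing of ribosomal RNA, read 9.72, 10.08 and 9.81 in Myc primary, 10.15, 10.58 and 10.45 in Myc secondary, 8.74, 8.55 and 8.62 in Shh, 8.15, 8.34 and 7.98 in GFP-positive and 8.17, 7.83 and 7.33 in GFP-negative samples. For Nolc1 the Shh and GFP-positive arrays overlapped and the GFP-negative arrays were lowest, whereas for Ddx21 the Shh arrays were above both sorted groups, which overlapped. Nolc1 rose by 1.30 ± 0.15, or 2.46-fold (adjusted p = 0.00013), and Ddx21 by 1.23 ± 0.20, or 2.35-fold (adjusted p = 0.0011).

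Npm1 and Ncl, the abundant nucleolar proteins nucleophosmin and nucleolin, are named here after their values were seen. Npm1 was at 12.84 ± 0.02 in Myc primary and 12.48 ± 0.13 in Shh tumours, a difference of 0.36 ± 0.12 (adjusted p = 0.051), with no overlap between the arrays. Its dimmer probe set passed when each probe set was tested by itself, at 0.47 ± 0.12 (adjusted p = 0.022). Npm1 also passed with the mean of its probe sets (0.41, adjusted p = 0.015), an intensity trend with robust variance (adjusted p = 0.013) and array weights (adjusted p = 0.025). It passed as well with a term for earlier or later title numbers, without the 3 arrays that stood apart and in 4 of 15 fits with 1 array left out. Ncl was read by a single dim probe set, at 5.48 ± 0.28 and 5.30 ± 0.16, close to background, so its difference of 0.19 ± 0.23 (adjusted p = 0.66) says little about the transcript.

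**Figure D2:**
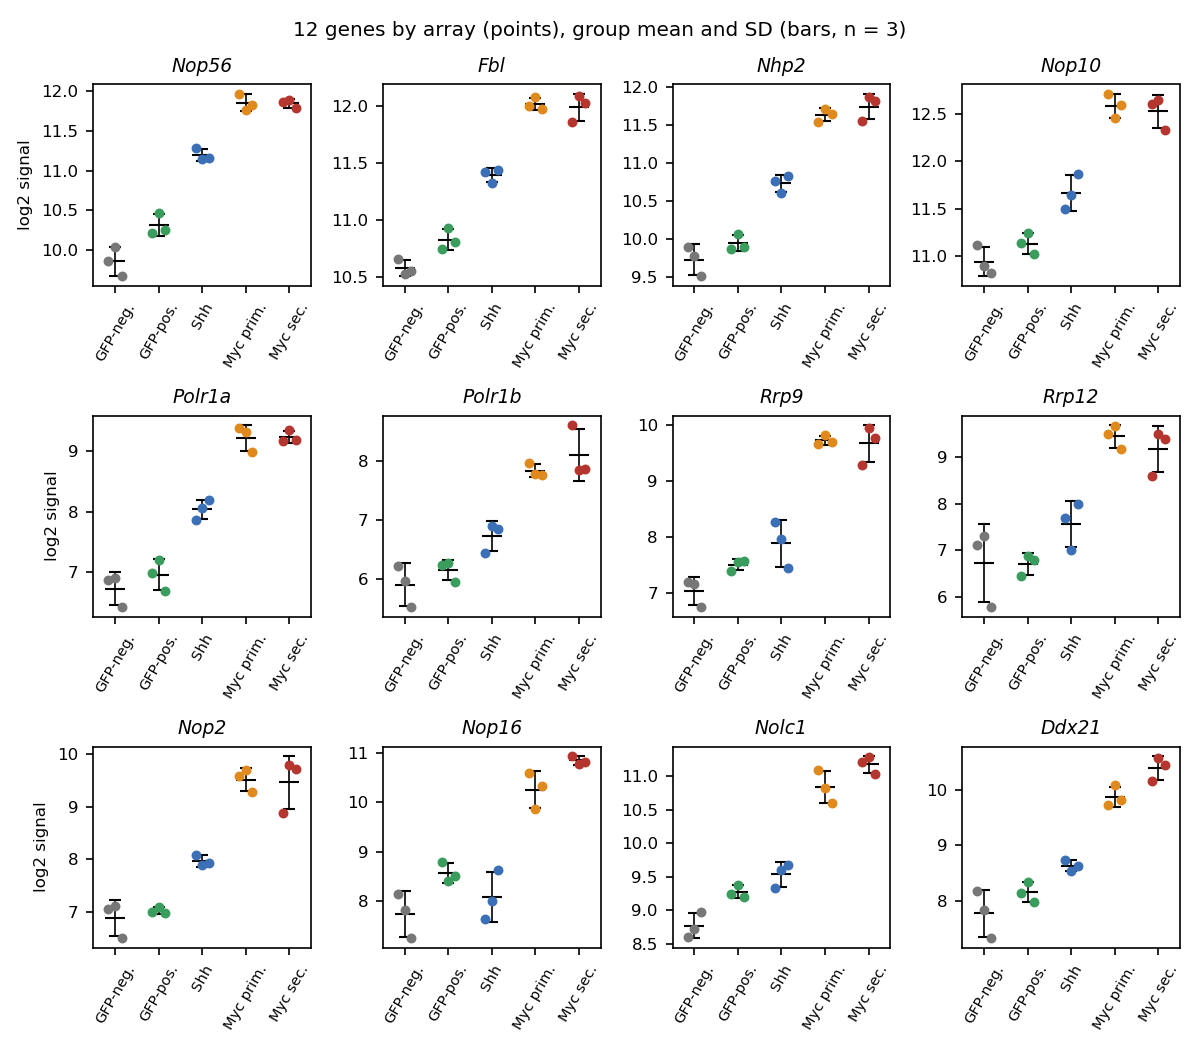
Log2 signal (vertical axis, its range set for each gene and not starting at 0) of the 12 genes with values in the text, in the 5 groups; points are arrays, the long tick is the group mean and the bars are the SD of 3 arrays. In all 12 panels every Myc primary and Myc secondary point lies above every Shh point.

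Myc secondary against Shh tumours shares the 3 Shh arrays with the comparison above, so the values are set side by side and are no separate evidence. Here 37 of 38 genes rose and none fell, against 10.5% of all genes that rose and 12.3% that fell, with a median of 1.2 (all genes 0.07). At least 2-fold higher were 23 genes, and 4.99% of all genes. Only Ncl did not pass, at 0.40 ± 0.23 (adjusted p = 0.25). Of the 37, 31 had also risen in Myc primary tumours, and the other 6 were Nop58 at 0.95 ± 0.20, Gar1 at 0.70 ± 0.15, Polr1c at 0.61 ± 0.17, Rrs1 at 0.60 ± 0.15, Ppan at 0.57 ± 0.19 and Npm1 at 0.50 ± 0.12. Nop16 again had the largest difference, 2.77 ± 0.27, or 6.84-fold (adjusted p = 2.2e-05), followed by Rrp9 at 1.78 ± 0.21 and Ddx21 at 1.76 ± 0.20. For all 38 genes, each read by its brightest probe set, every Myc secondary array was above every Shh array, as for 23.8% of all genes. This did not hold for every dimmer probe set. A dimmer one of Nolc1 read 8.36 on Myc secondary 1, under the 8.69 to 8.91 of the Shh arrays, while the other Myc secondary arrays were above these. The dimmer probe set of Pes1 was also lower on Myc secondary 1 than on every Shh array. Myc secondary arrays carry later sample title numbers than the Shh and Myc primary arrays. With a term for that run, 30 genes rose and the median was 1.55. Calls over all genes, in either direction, were 2674 with the term and 3897 in the main fit. Only the GFP-negative group spans the runs, with GFP-negative 3 alone in the later one. The term thus rests on that array, which stood apart, against the others of its group. The 18S probe set at the 5′ end read 11.74 to 12.01 on the Myc secondary arrays.

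Myc secondary against Myc primary tumours showed none of the 38 genes past the threshold of limma's test in either direction, against 0.257% of all genes higher and 0.462% lower in secondary tumours. At an unadjusted p below 0.05 there were 4 of the 38, against 2137 of all 17097 genes, so the share among the 38 was not above that of all genes. Differences lay between -0.28 and 0.59 with a median of 0.14 (all genes -0.03), and 25 of 38 were above 0. Nop16 at 0.59 ± 0.27 (adjusted p = 0.40) and Ddx21 at 0.52 ± 0.20 (adjusted p = 0.28) were among 6 genes for which all secondary arrays were above all primary arrays (8.41% of all genes), as was Nop58 at 0.58 ± 0.20 (adjusted p = 0.24). The misses leave room for differences of this size. Ddx21 passed with arrays centred on the median gene (0.85, adjusted p = 0.034) and with the term for the run (1.2, adjusted p = 0.032). Nop58 passed with array weights (0.58, adjusted p = 0.039) and without GFP-negative 3 (adjusted p = 0.036), and with the term for the run it turned to -0.27 (adjusted p = 0.52). Rrp12 and Noc4l were the farthest below 0, both at -0.28.

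Against the sorted cells the differences were larger. Against GFP-positive cells 36 of 38 genes were higher in Myc primary tumours and none lower, where 14.5% of all genes were higher and 10.3% lower, with a median of 1.68, or 3.21-fold (all genes 0.06). At least 2-fold higher were 31 genes, and 8.9% of all genes, and for 36 genes every Myc primary array was above every GFP-positive array, as for 26.9% of all. Rrp12 stood highest, at 2.74 ± 0.38, or 6.66-fold (adjusted p = 0.00022), then Nop2 at 2.50 ± 0.23 and Nop14 at 2.42 ± 0.15. Myc primary arrays lie in the earlier and GFP-positive arrays in the later run of title numbers, and with the term for the run 31 genes were higher, with a median of 1.32. Rrp12 (1.30, adjusted p = 0.098), Nop16 (0.95, adjusted p = 0.16) and Polr1b (1.10, adjusted p = 0.064) then no longer passed. Calls over all genes, in either direction, were 2872 with the term and 4232 in the main fit. Nop58 at 0.33 ± 0.20 (adjusted p = 0.28) and Ncl at -0.04 ± 0.23 (adjusted p = 0.94) did not pass. Nop58 was at 11.23 ± 0.10 in GFP-positive cells, close to its 11.19 ± 0.02 in Shh tumours, while its partners Nop56 and Fbl were higher in Myc primary tumours than in GFP-positive cells by 1.53 ± 0.12 and 1.19 ± 0.10. No test of that difference between genes was run.

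Against GFP-negative cells all 38 genes were higher in Myc primary tumours, where 19.1% of all genes were and 14.7% were lower, with a median of 2.04, or 4.13-fold (all genes 0.05), and 37 of them at least 2-fold (10.9% of all genes). For all 38 genes every Myc primary array was above every GFP-negative array, as for 24% of all. Rrp12 and Rrp9 differed by 2.72 ± 0.38 and 2.71 ± 0.21, and Ncl differed least, by 0.64 ± 0.23, with an adjusted p just under the threshold. GFP-negative cells are a mixture. The 8 microglia markers lay a median of 3.27, 4.40 and 3.30 above their mean on these arrays, between -0.63 and -0.17 on the Myc primary arrays and between -2.50 and -2.06 on the GFP-positive arrays. All 8 were lower in Myc primary tumours than in GFP-negative cells, as were 7 of 9 oligodendrocyte and 7 of 8 astroglia markers, and their part in the values of the 38 genes was not tested.

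**Figure D3:**
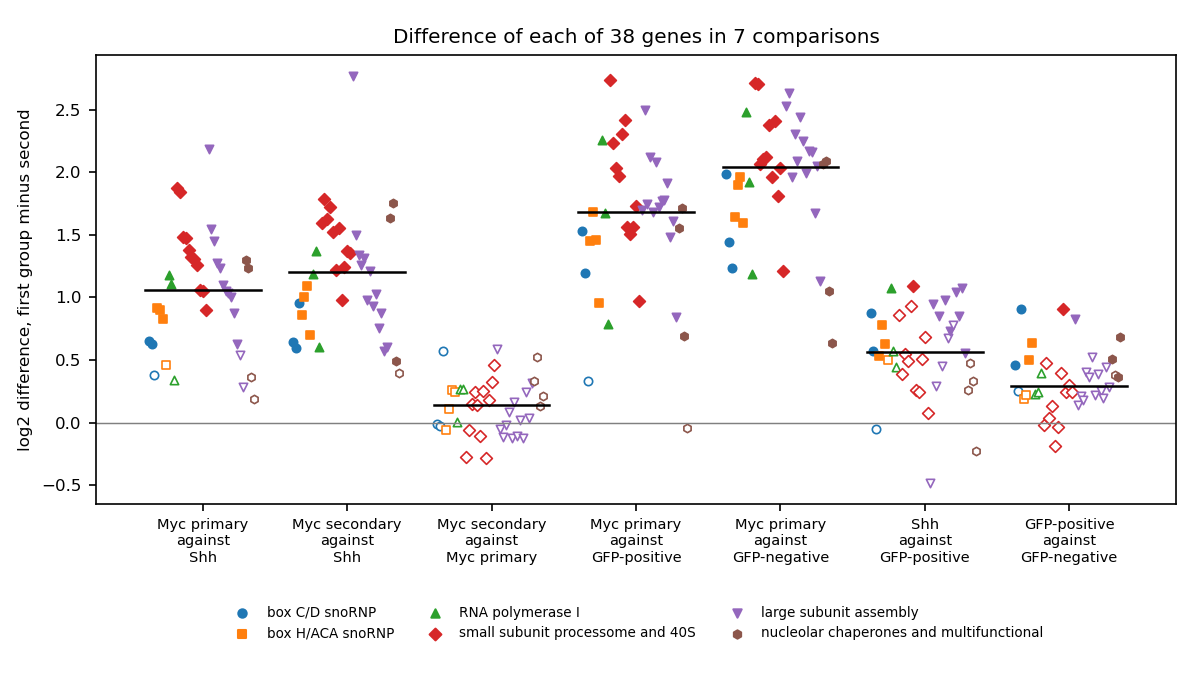
Log2 difference (vertical axis) of each of the 38 genes in each of the 7 comparisons (horizontal axis), the first group minus the second; shape and colour give the role, filled symbols passed an adjusted p below 0.05 and open ones did not, and black bars are medians. Nearly all symbols are filled in the comparisons of Myc tumours with Shh tumours or sorted cells, and none is filled between the 2 Myc groups.

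In Shh tumours against GFP-positive cells, in both of which all 7 granule progenitor markers were above background, 15 of 38 genes rose and none fell, against 4.63% of all genes that rose and 2.92% that fell. At least 2-fold higher were 4 genes (3.06% of all genes), and the arrays did not overlap for 30 (21.5% of all). The median was 0.56 (all genes -0.01), and 35 of 38 differences were above 0. The largest were Nop14 at 1.09 ± 0.15 (adjusted p = 0.0009), Polr1a at 1.08 ± 0.17 (adjusted p = 0.0024) and Ppan at 1.07 ± 0.19 (adjusted p = 0.0038). Among the roles, 8 of 13 large subunit and 5 of 7 snoRNP proteins rose, and 1 of 11 small subunit factors (Nop14) and 0 of 4 chaperones. Nop16 stood at -0.49 ± 0.27 (adjusted p = 0.36). A dimmer probe set of Ddx10 was lower in Shh tumours when tested by itself, by -1.06 ± 0.28 (adjusted p = 0.032), while its brighter one did not pass, at 0.26 ± 0.14. Of the 31 genes that rose in Myc primary over Shh tumours, 13 rose here as well, in comparisons that share the Shh arrays.

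These 15 calls depended on the processing. Shh arrays carry earlier sample title numbers and GFP-positive arrays later ones. With a term for that run, none of the 38 passed and the median was 0.36. Only the GFP-negative group spans the runs, so the term rests on GFP-negative 3, in the later run, against the other arrays of its group. GFP-negative 3 is among the arrays that stood apart. With each array centred on its median gene, which moved the median of all genes to -0.30, 3 passed and the median was 0.27, or 0.57 above that of all genes. Array weights gave 30, leaving out the 3 arrays that stood apart gave 26, and leaving out GFP-positive 1 gave 9. Calls over all 17097 genes moved as well. In either direction 1292 passed in the main fit, 812 with the run term and 1491 with centring. Array weights gave 3987 of all genes, leaving out the 3 arrays 2747 and leaving out GFP-positive 1 gave 665. The 18S probe set at the 5′ end also differed between these groups, at 9.37 to 9.57 on the Shh and 11.76 to 12.30 on the GFP-positive arrays. That from the middle of 18S did too, at 9.40 to 9.59 and 10.57 to 10.97. At the 3′ end the arrays overlapped, at 9.88 to 10.33 and 9.75 to 10.54. The part of 18S RNA in the result was not tested.

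In GFP-positive against GFP-negative cells 9 of 38 genes rose and none fell, against 12.6% of all genes that rose and 13.8% that fell, with a median of 0.29 (all genes 0.04). The 9 were Nop58 at 0.91 ± 0.20 (adjusted p = 0.0043), Noc4l at 0.91 ± 0.29, Nop16 at 0.83 ± 0.27, Ncl at 0.68 ± 0.23, Gar1 at 0.64 ± 0.15, Nolc1 at 0.51 ± 0.15, Dkc1 at 0.50 ± 0.17, Nop56 at 0.46 ± 0.12 and Npm1 at 0.36 ± 0.12. None reached 2-fold, as 5.56% of all genes did, and for 19 genes every GFP-positive array was above every GFP-negative array, as for 23.2% of all. In the same comparison 17 of 26 cell cycle genes rose, with a median of 0.70, and all 8 microglia markers fell. With arrays centred on the median gene, which moved the median of all genes to 0.54, 33 genes passed with a median of 0.79, or 0.25 above all genes, and with cyclic loess 2 passed with a median of 0.085. On the 6 arrays alone 3 passed. Of all 17097 genes, 4505 passed in either direction in the main fit, 9128 with centring, 4341 with loess and 4282 on the 6 arrays. Leaving out GFP-negative 2 gave 5, leaving out GFP-positive 1 or 3 gave 4 and leaving out GFP-positive 2 gave 2. In these fits between 3426 and 3789 of all genes passed. Without GFP-positive 2, Nop16 (adjusted p = 0.065), Nolc1 (adjusted p = 0.098) and Nop56 (adjusted p = 0.064) were among those that no longer passed. Of 15 fits with 1 array left out, Nop16 did not pass in 9, Nolc1 in 4 and Nop56 in 1. Some of the arrays whose loss removed Nop16 were outside the 2 sorted groups. Nop16 also missed with the mean of its probe sets (0.31, adjusted p = 0.21), cyclic loess (0.58, adjusted p = 0.12) and the 6 arrays alone (adjusted p = 0.053).

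Other genes of the pathway, from lists that hold none of the 38, had lower medians in Myc primary against Shh tumours, a difference between lists that was not tested. Of 33 other small subunit factors 19 rose and none fell, with a median of 0.77, and of 34 other large subunit factors 18 rose and none fell, with a median of 0.62. The smallest adjusted p among them were those of Utp15, of the module that joins the precursor first, at 1.85 ± 0.15 (adjusted p = 6.8e-06), Utp4 of the same module at 1.42 ± 0.17 and the late factor Pno1 at 0.89 ± 0.12. Among large subunit factors they were Pa2g4 at 1.71 ± 0.19 (adjusted p = 8.4e-05), Lyar at 1.25 ± 0.15 and Nifk at 1.10 ± 0.14. Of 9 other polymerase I factors 3 rose and none fell, with a median of 0.53, namely the subunits Polr1d at 1.10 ± 0.16 and Polr1e at 1.66 ± 0.34 and Tcof1, or treacle, which links the polymerase to modification of its product, at 1.69 ± 0.30. Of 11 genes of the nuclear exosome, which trims the precursor, 3 rose, with a median of 0.52, Exosc1 at 1.02 ± 0.14, Exosc2 at 0.83 ± 0.13 and Mphosph6 at 0.64 ± 0.17.

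The 66 cytosolic ribosomal proteins, the final cargo of the pathway, had a median difference of 0.07 between Myc primary and Shh tumours, and 3 rose and none fell, Rps23 by 0.60 ± 0.10, Rps15a by 1.10 ± 0.27 and Rpl14 by 1.5 ± 0.40. Their deviation on single arrays ranged from -0.24 to 0.19. Many ribosomal protein genes have near-identical pseudogenes, so their probe sets can be shared in part. Of 71 mitochondrial ribosomal proteins 33 rose and 1 fell, with a median of 0.53, led in adjusted p by Mrps30 at 1.56 ± 0.12, Mrpl12 at 1.17 ± 0.13 and Mrpl36 at 2.08 ± 0.26. Of 26 cell cycle genes 2 rose, Ccne1 by 1.54 ± 0.22 and Plk1 by 0.79 ± 0.24, with a median of 0.07. In Myc primary tumours against GFP-negative cells, by contrast, 21 of 26 cell cycle genes rose with a median of 0.82, beside the median of 2.04 of the 38 nucleolar genes. Against GFP-positive cells 36 of 66 ribosomal proteins rose with a median of 0.33, while 2 cell cycle genes rose and 2 fell.

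Of the Myc family and its partners, none of 10 genes rose in Myc primary over Shh tumours and 2 fell, Mycn at least 58.6-fold, with each Myc primary array counted at no less than background (adjusted p = 7.4e-09 in limma's fit to the measured values), and Mycl by -1.60 ± 0.36 (adjusted p = 0.0089). Mycn read 10.70, 10.75 and 10.64 on the Shh, 4.94, 4.10 and 4.58 on the Myc primary, 4.68, 4.73 and 5.16 on the Myc secondary, 10.65, 10.80 and 10.40 on the GFP-positive and 9.66, 9.30 and 9.41 on the GFP-negative arrays. Its arrays fell into a high range in Shh tumours and GFP-positive cells, a slightly lower one in GFP-negative cells and a level near background in both Myc groups. Myc primary 2, on which the Myc probe set read 5.21, had a median of 0.96 over the 38 genes, within the range of the other Myc arrays. Mycl read 7.07 ± 0.03 in Myc primary, 7.02 ± 0.79 in Myc secondary and 8.68 ± 0.22 in Shh tumours, and 8.35 ± 0.15 and 8.38 ± 0.67 in GFP-positive and GFP-negative cells.

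**Figure D4:**
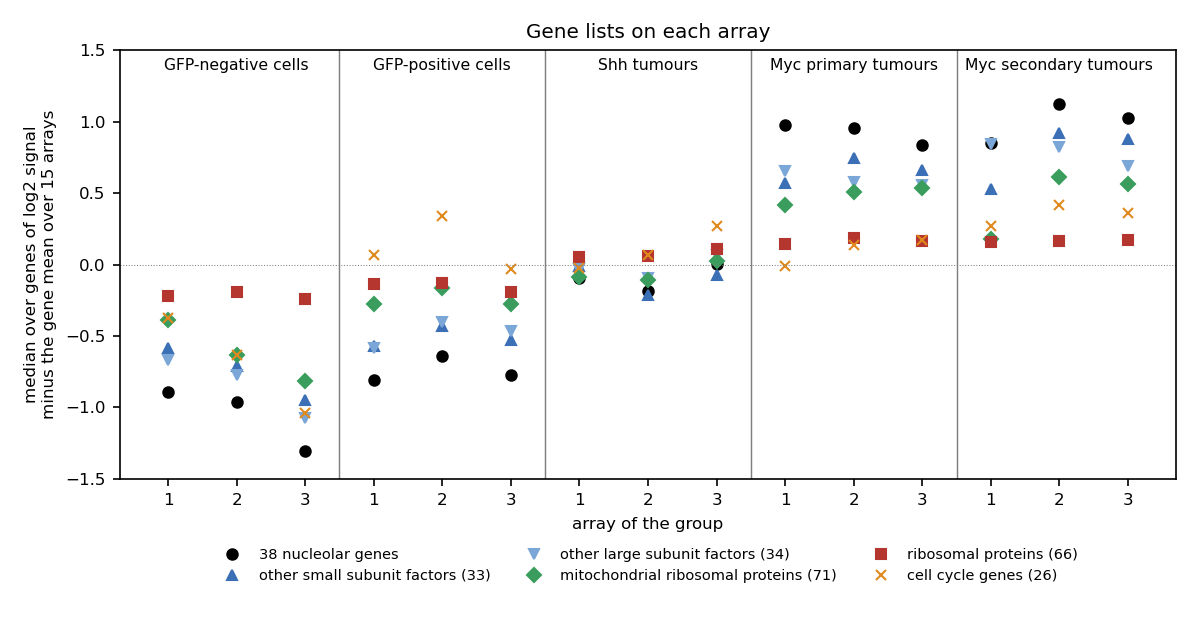
Median over each list of genes of the log2 signal minus the gene's mean over all arrays (vertical axis), for each of the 15 arrays (horizontal axis); symbols are the 38 nucleolar genes and 5 other lists, with the number of genes in brackets. The 38 genes run from -1.30 in GFP-negative cells to 1.13 in Myc secondary tumours, while ribosomal proteins stay between -0.24 and 0.19.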

How the data were processed

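The authors deposited log2 signals from 15 one-colour arrays, made by RMA in Partek 6.5 per the submitters' processing notes, with settings not given in the sources used here. RMA puts all arrays on one distribution of signals, so a change of total RNA per cell cannot be seen. These values were used as deposited. Of 45141 probe sets, 104 controls, 551 listed with several genes and 15588 others without a listed gene were left out. Each of 17097 genes was read by its probe set of highest mean signal. A single limma 3.58.1 fit (lmFit, eBayes, R 4.3.3, 10 residual degrees of freedom) over 5 groups of 3 arrays gave two-sided tests, with Benjamini-Hochberg adjustment over all genes. The number of arrays limits the precision. The fit was also run on simulated independent noise with shifts of known size. That simulation held no array or run effects, so it checks the code and says nothing about such effects in these data.

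The members and all gene lists were chosen with earlier results of these data known. Values on every array are given for the 2 members of each role with the largest difference between Myc primary and Shh tumours, for members called opposite to most, called nowhere, or with probe sets called both ways (none was), and for Mycn. Myc and Mycl are given as group means, with single arrays of Myc only in Myc primary tumours. Up to 3 genes of each other list, those of smallest adjusted p, are named, and a promoter is printed where a member with values on every array holds CACGTG. Other genes were chosen after their values were seen. Promoters came from RefSeq, build GRCm38.p6. Alternatives tried were a gene's probe sets averaged, each probe set by itself, dim genes left out, cyclic loess, centred arrays, only the 6 arrays of a comparison, an intensity trend with robust variance (statmod 1.5.0), array weights, a 2-fold minimum, a term for earlier or later title numbers, and arrays left out. Figures used matplotlib 3.10.9 in Python 3.11.15.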

Additional observations from a re-analysis of the deposited data

How the results depend on the processing

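The number of genes that rose in Myc primary over Shh tumours stayed between 29 and 34 in the gene-level fits, in Myc secondary over Shh tumours between 30 and 37, and against GFP-positive and GFP-negative cells between 32 and 38 but for 31 over GFP-positive cells with the run term or a 2-fold minimum. In the gene-level fits, calls over all genes in either direction ran from 1795 to 4073 in Myc primary over Shh tumours. They ran from 2674 to 6566 in Myc secondary over Shh tumours. For Myc primary tumours against GFP-positive cells they ran from 2872 to 5774, and against GFP-negative cells from 3999 to 6801. A 2-fold minimum left 23 of the 38 genes in both comparisons with Shh tumours. With each probe set by itself, 48, 59, 57 and 60 of 65 rose in these 4 comparisons, and 1, 22 and 19 in the other 3. In Myc secondary over Myc primary tumours 1 gene passed with the mean of probe sets, centred arrays or array weights, 2 with the run term and 0 to 1 when arrays were left out. Of all genes 123 passed in the main fit, 264 with the mean of probe sets, 274 with centring, 581 with weights and 860 with the run term. In Shh tumours over GFP-positive cells 3 rose with centred arrays, 30 with weights, 26 without the 3 arrays apart, 0 with the run term, 4 at 2-fold and 9 to 20 when arrays were left out, and 1 fell with weights and 1 probe set by itself. In GFP-positive over GFP-negative cells 2 rose with loess, 33 with centring, 3 on 6 arrays, 17 with weights, 0 at 2-fold and 2 to 10 when arrays were left out. With weights 7225 of all genes passed in either direction in that comparison, and 4505 in the main fit. Medians of the 38 genes were, with centred arrays and with the run term, 1.53 and 1.55 in Myc secondary over Shh, 0.47 and 0.45 in secondary over primary, 1.39 and 1.32 in primary over GFP-positive, 2.25 and 1.88 in primary over GFP-negative, 0.27 and 0.36 in Shh over GFP-positive, and 0.79 and 0.47 in GFP-positive over GFP-negative. Centring moved the median of all genes to 0.40, 0.30, -0.24, 0.26, -0.30 and 0.54 in these 6, and relative to it the 38 genes stood at 1.13, 0.17, 1.63, 1.99, 0.57 and 0.25. Loess gave 1.59 and 1.70 for Myc primary over GFP-positive and GFP-negative cells and 0.085 between the sorted groups. Myc primary over GFP-positive gave 1.56 with the mean of probe sets and 1.57 with each by itself. With arrays left out, medians ran from 1.0 to 1.17 in primary over Shh (1.17 without the 3 arrays apart), 0.023 to 0.20 in secondary over primary, 1.59 to 1.72 and 1.88 to 2.14 against GFP-positive and GFP-negative cells.

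Single genes were followed for all 38 in Myc primary over Shh tumours, for 4 in secondary over primary and for 12 in each other comparison, and among these a direction turned only where the main difference had not passed. In Shh over GFP-positive cells the run term gave -0.57 for Rrp12, -0.049 for Rrp9, -0.19 for Ddx21 and -0.0085 for Polr1b, and centring -0.032 for Nolc1. Between GFP-positive and GFP-negative cells Rrp12 turned to 0.48 with centring, 0.93 with the run term and ran from -0.50 to 0.27 with arrays left out. Nop2 turned to -0.086 with loess, -0.040 with weights and -0.052 without the 3 arrays apart, and ran from -0.052 (without GFP-negative 3) to 0.25 with arrays left out, and Nop10 and Nhp2 turned to -0.020 and -0.015 with loess. Nop58 turned to -0.27 in secondary over primary tumours with the run term. The run term rests on the GFP-negative group, the only one in both runs, with GFP-negative 3 alone in the later. That array stood apart from its group, and the cause of these changes was not tested. No paired analysis was possible because the labels give no replicate numbers.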

Other observations

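The probe set that Tsr1, a factor of the small subunit, shares with Srr, which encodes serine racemase, read 9.35 ± 0.16 in Myc primary, 9.68 ± 0.10 in Myc secondary and 8.68 ± 0.29 in Shh tumours, and 7.62 ± 0.11 in GFP-positive and 7.48 ± 0.53 in GFP-negative cells (SD, n = 3). The arrays of both Myc groups were above the Shh arrays and these above the sorted cells. Signal from the pair cannot be told apart in this probe set.

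Genes that host small nucleolar RNAs in their introns were read after the values of the 38 genes were seen, with no test. Of 10 measured, 8 were above background in at least 1 group, and their mean was higher in Myc primary than in Shh tumours for 5 and lower for 3, Snhg14, Snhg8 and Snhg17. Gas5 read 10.07 ± 0.66 in Myc primary and 9.97 ± 0.35 in Shh tumours, and 9.25 ± 0.16 in GFP-positive and 8.32 ± 0.81 in GFP-negative cells. Snhg5 read 10.63 ± 0.28, 10.35 ± 0.37, 10.72 ± 0.15 and 9.89 ± 0.22 in the same 4 groups. Snhg6 read 11.10 ± 0.07, 10.79 ± 0.24, 9.60 ± 0.34 and 9.55 ± 0.21 in them, and Snhg14 read 7.51 ± 0.27, 8.25 ± 0.12, 7.75 ± 0.33 and 7.66 ± 0.48.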
